A study of Mus musculus with 2 samples.

Results

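The genes described here are 9 interferon-inducible GTPases of mouse, 4 of the guanylate-binding protein (Gbp) family (Gbp2, Gbp3, Gbp4 and Gbp6) and 5 of the immunity-related GTPase (Irg) family (Igtp, Irgm1, Irgm2, Iigp1 and Ifi47). They were measured as every probe set whose platform symbol is 1 of these names, which gave 11 probe sets for 8 genes, among 45037 probe sets and 18193 named genes in all. Gbp4 had no probe set under its name alone. A probe set listed for Gbp8 and Gbp4 together was dim on both arrays, at 8.9 and 67.6, and cannot be assigned to either gene.

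RNA of B cells was hybridised to Affymetrix mouse arrays. All came from NOD mice, in which autoimmune diabetes arises spontaneously. The Tg group carried a human AIRE transgene under an MHC class II promoter, and the Non-Tg group did not carry it. The mice were 8 weeks old, and the cells were sorted as lacking Thy1 and CD11c and bearing B220. RNA of 2 mice was pooled on the single array of each group, so every ratio below describes these 2 arrays, without a replicate check, a test or a standard error. A class II promoter is active in antigen-presenting cells in general, so the transgene need not be limited to the sorted cells. Of 10 B cell markers 9 had a probe set of their own, all above the filter on both arrays. In bulk RNA, fewer cells of a type and less RNA per cell cannot be told apart.

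Gbp and Irg proteins are large GTPases that interferons induce strongly, interferon gamma above all. The Irg effectors and the Gbp proteins gather on the membranes of vacuoles that hold intracellular pathogens and break them, while the Irgm proteins sit on the cell's own membranes and keep the effectors inactive there. Interferon gamma acts through the receptor chains Ifngr1 and Ifngr2 and Jak kinases on gamma-activated sites, and through Irf1. Type I interferons act through Stat2 and Irf9 on interferon-stimulated response elements, and Mx, Oas and Ifit genes are their classical antiviral targets.

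Promoters of the GTPases were searched for the core letters of both kinds of element, because the 2 pathways act on such elements. A match of letters alone does not show that a site is used. RefSeq promoters of GRCm38.p6, 250 bases before to 50 after the annotated start, were found for 6 of the 9 genes. The letters searched were GAAA, any 2 bases, GAAA for the core of an interferon-stimulated response element, and TTCNNNGAA for the core of a gamma-activated site, on both strands and with overlaps allowed. The 110 bases before the start follow, 5′ to 3′ on the strand of the gene, with every match in capitals.
Igtp, chr11:58199446-58199555, plus strand: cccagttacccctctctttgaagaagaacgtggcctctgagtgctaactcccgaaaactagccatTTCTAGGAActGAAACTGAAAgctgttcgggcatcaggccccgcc
Irgm2, chr11:58214867-58214976, plus strand: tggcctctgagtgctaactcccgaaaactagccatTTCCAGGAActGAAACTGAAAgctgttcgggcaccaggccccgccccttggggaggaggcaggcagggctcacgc
Irgm1, chr11:48871421-48871530, minus strand: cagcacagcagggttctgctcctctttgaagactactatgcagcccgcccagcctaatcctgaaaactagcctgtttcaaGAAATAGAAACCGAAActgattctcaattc
Ifi47, chr11:49076477-49076586, plus strand: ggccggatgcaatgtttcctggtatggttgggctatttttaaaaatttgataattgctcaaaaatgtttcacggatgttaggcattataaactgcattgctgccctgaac
Gbp2, chr3:142620553-142620662, plus strand: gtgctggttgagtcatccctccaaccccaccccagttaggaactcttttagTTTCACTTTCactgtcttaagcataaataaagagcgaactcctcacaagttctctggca
Gbp3, chr3:142559934-142560043, plus strand: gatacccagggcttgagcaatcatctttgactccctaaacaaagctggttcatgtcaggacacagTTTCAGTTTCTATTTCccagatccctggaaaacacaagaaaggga

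The response element core, or its reverse complement, was present in 5 of the 6 promoters, against 3.44% of all 32851 promoters of that length. In Irgm1 and in the first start of Gbp3, 2 matches overlap in 1 run. The gamma-activated site core was present in Igtp and Irgm2, against 8.3% of all promoters. In both of these genes the gamma-activated site core lies upstream of the other core with 2 bases between them. This arrangement was picked once these sequences were seen, so both genes hold it by construction and its rarity is no test. Of all 32851 promoters 5 (0.015%) hold it, those of Igtp and Irgm2 among them. The other three belong to Tgtp1 and Tgtp2, further Irg genes that no probe set measured under 1 name here, and to Gm12185. Igtp and Irgm2 are neighbours in the RefSeq gene order, and their promoters share a stretch of 55 identical bases. Over 80 bases around the motif pair 77 are the same, and over all 220 bases upstream of the starts that can be set side by side 134 are (60.9%). Ifi47 had neither match in its window, which says only that these letters are not in it.

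Promoters of the antiviral comparison genes were found for 14 of 20 listed Mx, Oas and Ifit genes, and 9 of these 14 held the response element core, 2 the gamma-activated site core and 1 both. Ifit1, which binds foreign RNA caps, and Oas3, an oligoadenylate synthetase, are shown as examples.
Ifit1, chr19:34640779-34640888, plus strand: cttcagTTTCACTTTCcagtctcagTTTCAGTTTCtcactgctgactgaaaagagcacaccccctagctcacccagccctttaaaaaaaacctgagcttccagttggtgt
Oas3, chr5:120777660-120777769, minus strand: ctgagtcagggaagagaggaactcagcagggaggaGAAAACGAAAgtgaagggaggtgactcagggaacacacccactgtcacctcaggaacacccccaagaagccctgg

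**Figure D1:**
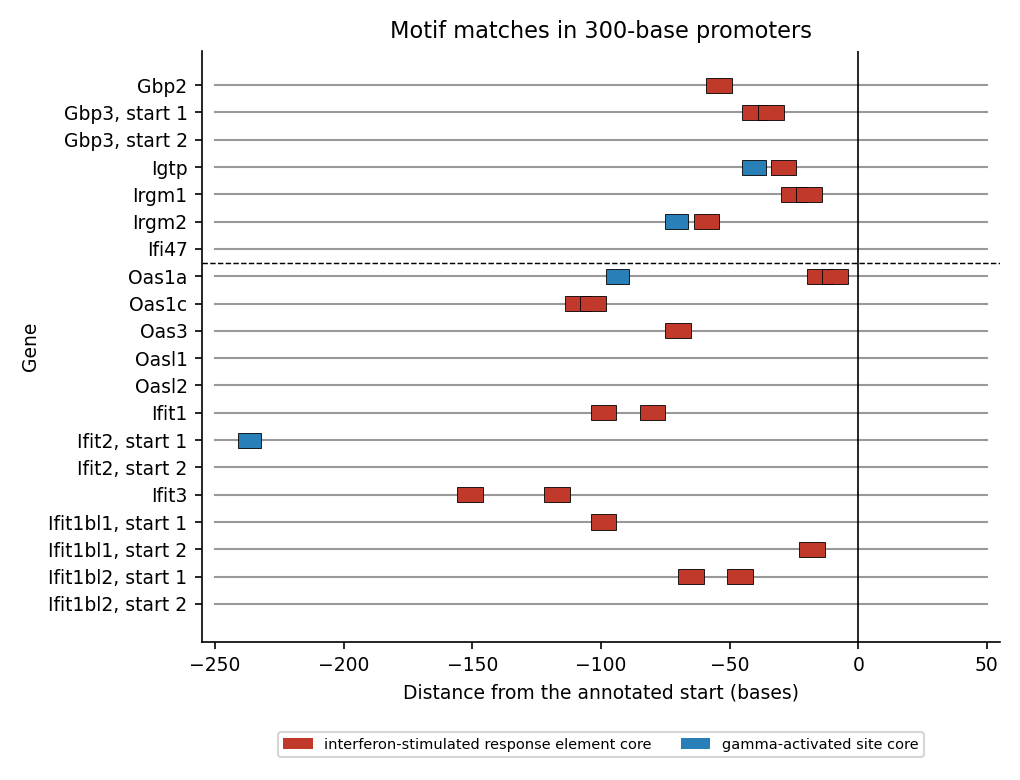
Positions of the 2 motif cores in promoters of 6 GTPase genes (above the dashed line) and of the 10 Oas and Ifit genes above the filter with a promoter entry, by distance in bases from the annotated start. In Igtp and Irgm2 a gamma-activated site core stands just upstream of a response element core, and Ifi47 and the second start of Gbp3 have no match.

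Most of the GTPases were moderately brighter on the Tg array. Intensities are the authors' deposited linear values. A log2 ratio is Tg over Non-Tg after values under the floor of 25 were set to it. A gene is represented by its brightest probe set and lies above the filter if its higher value reaches 98.8, the median of all values. All 8 genes lay above the filter on both arrays, and their log2 ratios ran from 0.01 (Gbp3) to 1.34 (Gbp6) with a median of 0.58. Over the 10804 named genes above the filter the median was 0.01, with an SD of 0.58 over genes. At least 2-fold higher was 1 of 8 members, Gbp6, against 2.7% of all genes above the filter and 1.85% of those whose mean level lay within the members' range. Of the 8 members 0 were at least 2-fold lower, against 4.76% of all genes. At least 1.5-fold higher were 4 of 8, against 9.83% of all genes.

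Among the Gbp genes, which form dimers and assemble on vacuole membranes, the 3 measured members differed from each other. Gbp6 was read by 2 probe sets, the brighter at 629.7 on the Tg and 249 on the Non-Tg array, a log2 ratio of 1.34. Its other probe set was at 236 against 107, a log2 ratio of 1.15. Both readings of Gbp6 were thus more than 2-fold higher on the Tg array, and only 1.26% of genes above the filter had a ratio at least as high as that of the first. Gbp6 belongs to a block of close copies with Gbp4, Gbp8, Gbp9 and Gbp10 that lie side by side, so it is uncertain how far its probe sets read Gbp6 alone.

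Gbp2, a member that is lipid-anchored to membranes, was at 1359.6 on the Tg and 906 on the Non-Tg array by its brighter probe set, a log2 ratio of 0.59. Its second probe set gave 1169 against 486, a log2 ratio of 1.27. Both were higher on the Tg array, but the second lay past 2-fold and the first did not. The name of the second probe set marks sequence that may cross-hybridise with other transcripts. Gbp3, another dimer-forming family member, stood at 1234 on the Tg and 1225 on the Non-Tg array (0.01), the smallest difference of the 8 members and next to the median of all genes.

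The Irgm proteins, regulators of the family, were all brighter on the Tg array and none was 2-fold apart. Irgm1, which is needed for survival of infections and for blood cell renewal under interferon, was at 1729.8 against 1079 (0.68). Irgm2 was at 638 against 384 (0.73), the second highest ratio of the 8 members. Igtp, also called Irgm3, was at 1315.5 against 1054 (0.32). Igtp and Irgm2, whose promoters carry the same motif pair, differed by 0.41 in log2 ratio, and each was read by 1 probe set only.

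The Irg effectors had ratios of like size. Ifi47, also called Irgd, was at 1988 on the Tg and 1375 on the Non-Tg array (0.53). Iigp1, also called Irga6, which loads onto vacuoles of Toxoplasma, was dim, at 165 against 111 (0.57). Its other probe set was below the filter, at 21.6 against 33.7, and so does not decide the direction. Leaving that probe set aside, 10 of 10 member probe sets above the filter were higher on the Tg array, against 47.9% of 19976 named probe sets above the filter. These 10 include Gbp3, which was near equal on both arrays. Of the 10 probe sets 3 were at least 2-fold higher, against 2.76%. The 3 are both probe sets of Gbp6 and the second of Gbp2, so they are not 3 separate genes. By gene, 51.2% of all genes above the filter had a ratio above 0 as deposited and 64.9% with the medians of the arrays aligned.

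**Figure D2:**
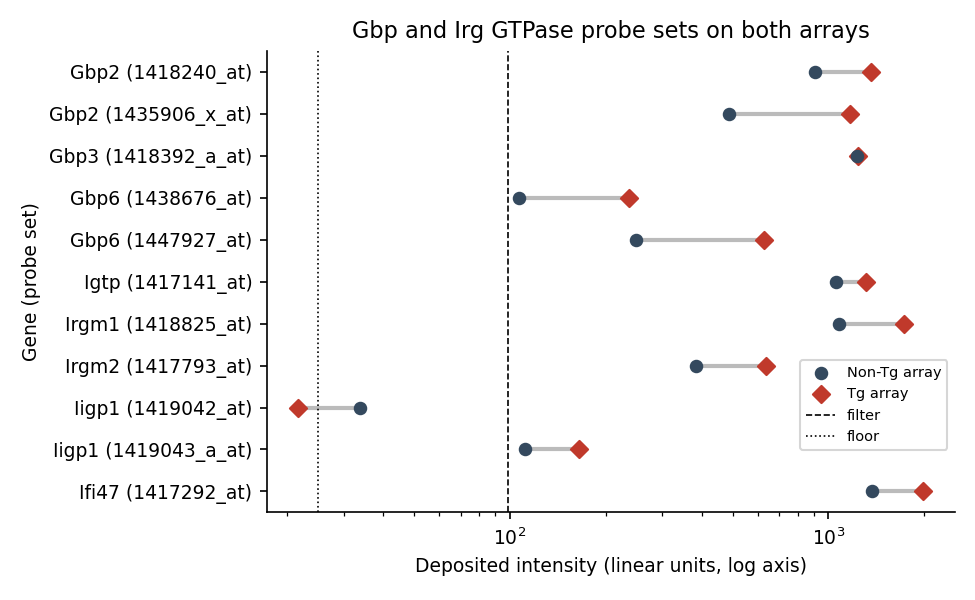
Deposited intensity of each of the 11 GTPase probe sets on the Non-Tg array (circles) and the Tg array (diamonds), on a log axis, with the floor (dotted) and the filter (dashed). Gbp6 and the second Gbp2 probe set are widest apart, both Gbp3 values coincide, and only the dim Iigp1 probe set is lower on the Tg array.

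The only error that these files hold is the disagreement between probe sets of 1 gene. Over 4613 genes with at least 2 probe sets above the filter on both arrays, the pooled SD of the log2 ratios within a gene was 0.41. The log2 ratio of 6 of the 8 members was larger than this, against 17.7% of all genes above the filter, while those of Gbp3 and Igtp were not, and the gap between Igtp and Irgm2 was about as large. That SD covers probe and hybridisation scatter and differences between transcripts of a gene, and not the spread between mice. Apart from Gbp6, whose ratio 1.26% of genes above the filter reached, single members were not at the far end of the genes measured. Of the genes above the filter 9.83% had a ratio at least as high as Gbp2, 6.98% as high as Irgm1, 5.90% as high as Irgm2, 10.4% as high as Iigp1, 11.7% as high as Ifi47, 23.9% as high as Igtp and 50.4% as high as Gbp3. In 7 of 8 members the ratio lay above the 75th percentile of all genes (0.31), and in 1, Gbp6, above the 95th (0.79).

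**Figure D3:**
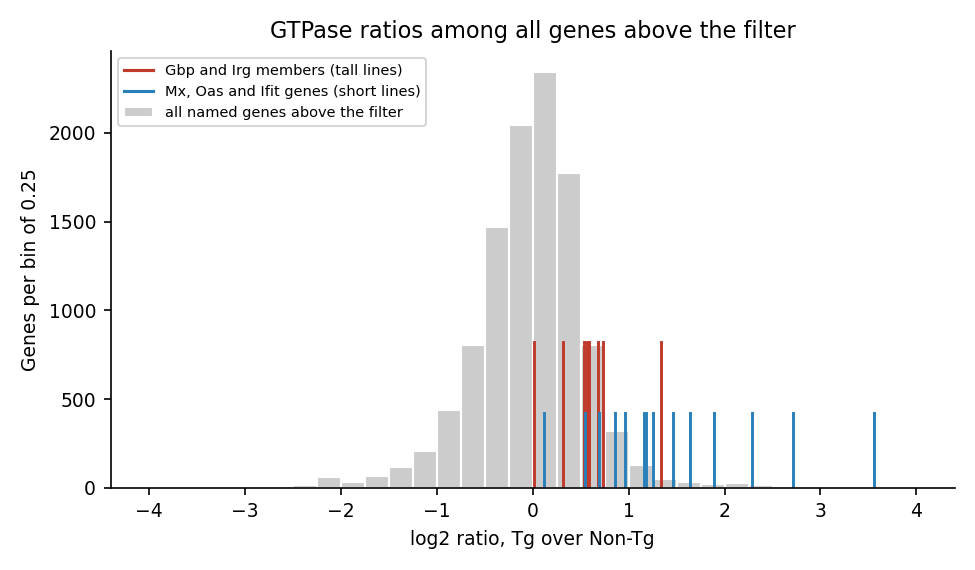
Number of named genes above the filter per bin of log2 ratio, Tg over Non-Tg, with the 8 GTPase members as tall lines and the 14 Mx, Oas and Ifit genes above the filter as short lines. Most members lie on the right shoulder of the distribution, between 0.32 and 0.73, and the antiviral genes reach 3.56.

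The ratios depended little on scaling when read against all genes. As deposited, the trimmed mean of both arrays was 500.0, and the median of all probe sets was 93.1 on the Tg and 104.3 on the Non-Tg array. Aligning these medians moved the median log2 ratio of all genes above the filter from 0.01 to 0.19, quantile normalization to 0.05 and loess to 0.03. Relative to that median, the members' median was 0.56 as deposited, 0.55 with medians aligned, 0.57 after quantile normalization and 0.56 after loess. Gbp6 was the single member past 2-fold under each of the 4 scalings. The ratio of Gbp3 was -0.02 after quantile normalization and -0.03 after loess, so it has no settled sign. Over all genes, 36.2% of those at least 2-fold apart were higher on the Tg array as deposited, 58.1% with medians aligned, 48.1% after quantile normalization and 47.2% after loess.

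**Figure D4:**
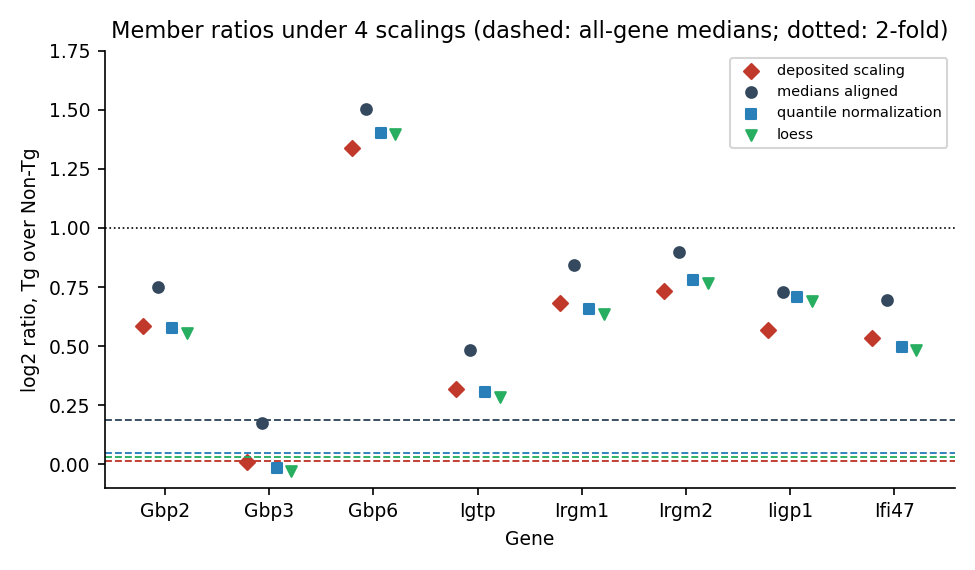
Log2 ratio of each GTPase gene under 4 scalings (symbols), with the median of all genes above the filter under each (dashed lines) and the 2-fold line (dotted). The order of Gbp6 first and Gbp3 last is the same under the 4 scalings, and Gbp3 sits near the median of all genes under each.

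Family relatives outside the 9 genes gave the other large differences. The list of 22 further family names had a probe set for 6 genes, 4 of them above the filter. Gbp7 was at 1991 on the Tg against 923 on the Non-Tg array (1.11), and at 722 against 307 (1.24) by its other probe set. Gbp8 was at 1081.5 against 479 (1.17). Of the 4 genes 2, Gbp7 and Gbp8, were thus at least 2-fold higher on the Tg array, against 2.7% of all genes. Among the members Gbp6 was too, while Gbp3 and, by its brighter probe set, Gbp2 were not. Gbp6, Gbp7 and Gbp8 were set together once their values were known, and Gbp6 and Gbp8 are close copies that may share signal. Gbp6, Gbp7 and Gbp8 do not share 1 block. In the RefSeq gene order Gbp7 is next to Gbp3, which was at 0.01, and Gbp8 and Gbp6 lie in the other block. Of the list's remaining genes, Irgc1, above the filter on the Non-Tg array only, was at 81.7 against 236.5 (-1.53). Irgq was at 1028 against 1260.5 (-0.29), and Irgc1 and Irgq are not known as interferon-induced. Gbp2b, an interferon-induced Gbp picked once its values were known, was below the filter, at 31.4 against 61.7.

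The antiviral Mx, Oas and Ifit genes were farther apart between the arrays than the GTPases. Of 17 with a probe set 14 lay above the filter, and 9 of these 14 were 2-fold or more above the Non-Tg value, against 2.7% of all genes, and 0 as far below it. When both arrays had to reach the filter, as all 8 GTPases do, 6 of 11 antiviral genes were past 2-fold higher, with a median of 1.16. The share of all genes past 2-fold higher under that rule was 1.33%. The median log2 ratio of the 14 was 1.22, or 1.16 with the 3 genes under the filter included, against 0.58 for the 8 GTPases. Of the 14 genes 11 had a ratio above that of Irgm2 and 6 a ratio above that of Gbp6, but 3 of these 6, Mx2, Oas3 and Ifit1, passed the filter through the Tg array alone. With 1 array a group, the difference of -0.64 between the medians of the GTPases and of the antiviral genes has no test.

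Mx2, a dynamin-like antiviral GTPase, was at 411.9 on the Tg against 34.9 on the Non-Tg array (3.56). Oas3 was at 204 against 31.1 (2.71), and Ifit1 at 301 against 61.5 (2.29). These 3 genes were below the filter on the Non-Tg array, so their folds are uncertain, whereas the 8 GTPases were above it on both. Oas2 was at 644 against 173 (1.89), the synthetase-like Oasl2 at 426.5 against 137 (1.64) and Ifit3 at 667 against 243 (1.46). Ifit2, a partner of Ifit1 and Ifit3, was at 595 against 250.0 (1.25). The lower end of the antiviral list overlapped with the GTPases: Oasl1 was at 472 against 291.5 (0.70), Ifit1bl2 at 186 against 127 (0.55) and Oas1c at 405 against 373 (0.12). Mx1, the nuclear antiviral GTPase, was at 465 against 257 (0.86). The remaining 3 were near 2-fold: Oas1b was at 336 against 148 (1.18), Ifit1bl1 at 541 against 242.5 (1.16) and Oas1a at 525 against 269.9 (0.96). Members of the Oas1 and Ifit1 groups are close copies and may share signal.

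**Figure D5:**
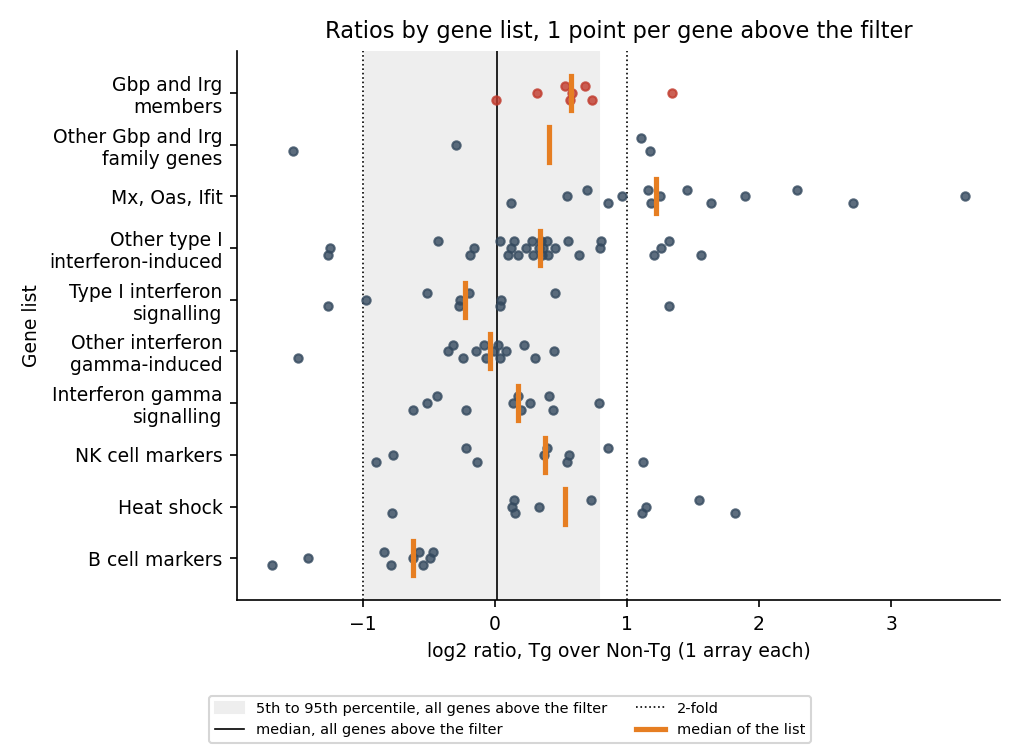
Log2 ratio, Tg over Non-Tg, of each gene above the filter (points) in 10 gene lists, with list medians (orange bars), the median and the 5th to 95th percentile of all genes (line and grey band) and the 2-fold lines (dotted). The GTPases centre on 0.58, the Mx, Oas and Ifit genes on 1.22 and the B cell markers on -0.62, and some genes stand in more than 1 list.

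Further genes induced mainly by interferon gamma had a median near 0. Of 20 with a probe set 14 lay above the filter, with a median log2 ratio of -0.04. Cxcl9, Cxcl10, Cxcl11, Ido1, Nos2 and Batf2 lay under the filter, so this median does not include them. How far the 14 follow interferon gamma in these cells was not tested. Of the 14, 0 were 2-fold or more higher and 1 as much lower, near the shares of all genes (2.7% and 4.76%). The lower gene was Ciita, the class II transactivator, at 886 on the Tg against 2491 on the Non-Tg array (-1.49), and its other 2 probe sets were lower too. Tapbp, which loads peptides onto class I, was bright on both arrays, at 9236 against 9306 (-0.01). Picked once the values were known, the class I transactivator Nlrc5 was at 1313 against 964 (0.45), the peptide transporter Tap1 at 2129 against 1727 (0.30) and the immunoproteasome subunit Psmb9 at 4299 against 4507 (-0.07). The chemokine Cxcl10, also picked then, was under the filter at 89.0 against 98.7.

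Further genes induced by type I interferon lay between. Of 28 above the filter, 4 were 2-fold or more higher and 2 as much lower, against 2.7% and 4.76% of all genes. Their median was 0.34. The receptor chaperone Rtp4 was at 1125 against 382 (1.56), Usp18, which restrains the type I receptor, at 375 against 150.5 (1.32), and the RNA sensor Ifih1 at 293 against 122 (1.26). Stat2, part of the type I signalling complex, was lower on the Tg array at 616 against 1479 (-1.26), and at 472 against 654 (-0.47) by its other probe set.

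The ligand gene Ifng was under the filter on both arrays, at 97.2 on the Tg and 80.5 on the Non-Tg array. Its receptor chain Ifngr1 was at 1479.6 against 1116 (0.41) and the chain Ifngr2 at 387.5 against 525.5 (-0.44), with a second probe set at -0.49. Of 11 genes of interferon gamma signalling above the filter 0 were 2-fold apart in either direction, against 7.46% of all genes. Their median was 0.17, with a range from -0.62 to 0.79. Both ends were picked once the values were known. They are Irf2, a repressor of interferon-induced genes, at 2146.6 against 3310.1, and Socs3, an inhibitor of cytokine signalling, at 1724 against 998, whose other probe sets were at 0.27 and 0.09. Of the same 11 genes the brightest probe sets belonged to the transcription factor Irf8, at 12756 against 14878 (-0.22), and the kinase Jak1, at 8664 against 12368 (-0.51), whose 2 dimmer probe sets were at -0.35 and -1.41. Irf1, which interferon gamma induces and which acts on the GTPase promoters, was at 2776 against 2521.5 (0.14) and was picked once its values were known.

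Of 10 genes of type I signalling above the filter 1, Usp18, was past 2-fold higher and 1, Stat2, past 2-fold lower. Their median was -0.23, and of all genes above the filter 2.7% were that much higher and 4.76% that much lower. The receptor chains Ifnar1, at 1255 against 1509 (-0.27), and Ifnar2, at 935 against 911 (0.04), were close on both arrays. The ligand gene Ifnb1 was under the filter at 51.8 against 30.2, Ifna1 at 39.9 against 63.3 and Ifna4 at 2.9 against 26.5. Ifna5 was under the floor on both arrays, and Ifna2 passed the filter on the Non-Tg array only, at 56.6 against 111. Genes of the autophagy and inflammasome machinery that works with these GTPases at vacuoles had a median of 0.04 over 18 above the filter. Of these 18 genes 0 were past 2-fold in either direction, against 7.46% of all genes. The brightest probe sets there belonged to Gabarap, at 6053 against 8646 (-0.51), and Map1lc3b, at 5366 against 4959 (0.11), both ubiquitin-like proteins that help the GTPases reach their membranes.

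Other gene groups moved between the same 2 arrays, and their part in the GTPase ratios was not tested. B cell markers had a median of -0.62, with 9 of 9 below the all-gene median and 2, Fcer2a (-1.69) and Cd79a (-1.42), at least 2-fold lower, and their summed intensity was 127495 on the Tg and 226965 on the Non-Tg array. Natural killer cell markers, of a cell type known to make interferon gamma, had a median of 0.38 over 10 above the filter, with 6 of the 10 above 0. Past 2-fold were 1 higher, Klre1 (1.12), and 0 lower, while Il2rb (-0.90, and -1.36 by its other probe set) and Gzmb (-0.77) were picked, once the values were known, as the lower end. Their sum over 12 genes was 8350.2 against 6506, and 0 of the 12 were at the floor on both arrays. Heat shock genes had a median of 0.53 over 10, with 4 at least 2-fold higher, led by Hspa1b (1.82). The 4 include Hspa1a (1.55), a close copy of Hspa1b, and the pair may share signal. Neutrophil markers had a median of 0.71 over 6, with Ngp (1.28) past 2-fold, while their sum over 8 genes was 8700.7 against 9384, with Cxcr2 at the floor on both.

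T cell markers had a median of -0.44 over 8 and a sum over 10 genes of 2098 against 2533. Of these Cd4, at 145.7 against 40.5 (1.85), was past 2-fold higher, with its other probe set under the floor on both arrays. Thy1, a marker the sort used, was past 2-fold lower at 95.4 against 219.6 (-1.20). Cd4 reached the filter on the Tg array only and Thy1 on the Non-Tg array only, so their folds are uncertain. Macrophage and monocyte markers had a median of -0.10 over 9 and a sum over 10 genes of 11723 against 11826, with Marco at the floor on both. Dendritic cell markers had a median of 0.12 over 10 and a sum over 11 genes of 15015 against 15061. Of these markers Batf3, above the filter on the Non-Tg array only, was past 2-fold lower at 65.8 against 189.1 (-1.52). Among them Itgax, the gene of the sort marker CD11c, was above the filter on both arrays, at 757.6 against 707.7. It was picked once its values were known. Plasma cell markers had a median of -0.25 over 7, and 0 of 4 erythroid markers lay above the filter. The ratio of 3′ to 5′ signal of the beta-actin control was 1.49 on the Tg and 1.25 on the Non-Tg array. The mouse Aire probe set was under the filter on both arrays, at 84.5 and 91.7, but whether it reads human AIRE is not known here, so it is no check of the labels.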

How the data were processed

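RNA of 1 Tg and 1 Non-Tg sample was measured on 1 array each. The authors deposited linear signal intensities per probe set, whose software, background step and scaling are not given in the sources used here, and no genome build of the files is stated. The number of arrays limits the precision. Controls (64 of 45101 probe sets) were set aside. Of the rest 34945 carry 1 symbol in the platform table, 932 several and 9160 none, and only the first were named. Symbols were checked by Entrez identifier against RefSeq GRCm38.p6 (34741 held, 0 renamed).

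The deposited scaling was kept, because aligning the medians of all probe sets shifted the median ratio of genes above the filter. The floor was the 25th percentile (25) and the filter the median (98.8) of the pooled values. Called means past 2-fold. Named genes were all members, up to 4 genes past 2-fold per list or else the brightest 2, ligands, receptor chains and STATs, and all Mx, Oas and Ifit genes above the filter. The members and lists were chosen with earlier results of these data known. The steps were tested on simulated arrays. Python 3.11.15, numpy 2.4.6, pandas 2.3.3, statsmodels 0.14.6 and matplotlib 3.10.9 were used. Alternatives changed scaling, floor, filter, fold threshold and probe set rule.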

Additional observations from a re-analysis of the deposited data

How the results depend on the processing

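The count of members at least 2-fold higher was 1 under 11 of 12 alternatives, and 4 with a 1.5-fold threshold, where Gbp2 lies just past the threshold. The count at least 2-fold lower was 0 under all 12. The members' median log2 ratio ranged from 0.58 to 0.74 over 11 alternatives. When probe sets named as reading shared sequence are left out, Gbp3 and the brighter probe set of Iigp1 drop out and 6 members stay above the filter. Of the single members, Gbp2 moved from 0.59 to 0.93 with the mean of its probe sets, and Gbp3 ranged from -0.03 to 0.17. With a filter at the 75th percentile, 3 Mx, Oas and Ifit genes remain in the count and all 3 are past 2-fold, their median is 1.46 and the members' median lies lower by a difference of -0.87. Here fewer genes are counted. These 3, Oas2, Ifit2 and Ifit3, reach that filter (556.8) on the Tg array alone, as do Gbp6 and Irgm2 among the members. A filter on the higher value thus favours high ratios, so the count, median and difference under it add no support. The median of the further family genes, 0.41 over 4 genes, was -0.26 without a filter, 1.11 with the filter at the 75th percentile or when both arrays had to reach the filter, and 0.86 when probe sets were averaged. That of the further genes induced mainly by interferon gamma was -0.24 with the probe set of median ratio. This rule takes the lower middle ratio when a gene has an even number of probe sets. Under it the median of all genes above the filter was -0.12. How much of the move to -0.24 comes from the rule was not tested. The medians of the interferon gamma signalling genes and of the other genes induced by type I interferon moved by less than 0.2 under the alternatives run. The remaining lists were not run under them. No paired analysis was possible because each group is 1 array. Signal over background could not be judged because no detection calls were used, so ratios of dim probe sets such as those of Iigp1 are uncertain.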

Other observations

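The promoter letters were also set against the ratios of all genes, as a description. Of genes above the filter with a RefSeq promoter, 335 held the response element core (GAAA, any 2 bases, GAAA), with a median log2 ratio of 0.07 and 4.78% at least 2-fold higher on the Tg array. The 730 genes with TTCNNNGAA had a median of -0.01 and 2.33% at least 2-fold higher. The 48 with both had 0.06 and 4.17%, which is only 2 genes, Gbp7 among them. The 7770 with neither had a median of 0.02 and 2.57%. The GTPases and Mx, Oas and Ifit genes are themselves among those counted.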
